A study of Mus musculus with 4 samples.

Results

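Dividing thymocytes that carried Il2ra transcripts and no Cd4 or Foxp3 transcripts were described in single-cell RNA sequencing of the mouse thymus. Barcodes with at least 500 genes and under 10% of their unique molecular identifiers (UMIs, each marking 1 captured transcript) from mitochondrial genes were kept. A kept barcode was a member where it held at least 5 UMIs of Mki67, at least 1 of Il2ra, and 0 of Cd4 and of Foxp3. By this rule 1231 of 18325 kept barcodes in the CD25+ libraries were members, out of 23210 kept barcodes in all 4 libraries. Mki67 encodes a nuclear protein of cycling cells, Il2ra the CD25 chain of the interleukin 2 receptor, and Foxp3 the defining factor of regulatory T cells.

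The thymi came from 3-week-old C57BL/6J animals that the labels give as wild type (WT) or as PD-1 knockout, pooled over 4 animals. After depletion of CD8-bearing cells, live cells positive for CD4 and HSA were sorted by CD25, the CD25- gate being meant for CD4 single-positive cells and the CD25+ gate for regulatory T cells with their progenitors. Each gate and genotype gave 1 library, so no comparison between libraries has a replicate check, no p-value is given, and every difference below is between libraries and not between genotypes. Intervals are at 95% and cover counting error only. PD-1, encoded by Pdcd1, is an inhibitory receptor, and the sources used here do not say which part of the gene was deleted. Pdcd1 stood at 21.3 CPM (UMIs of a gene per 1000000 UMIs summed over the cells of a class) in WT members and at 17.1 CPM in the others, which checks no label, so the second library is called knockout-labelled throughout.

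Immature thymocytes first lack both CD4 and CD8 and are called double negative (DN). At the CD25-bearing DN stage, the RAG1 and RAG2 recombinase cuts the T cell receptor beta, gamma and delta loci and terminal transferase (Dntt) adds bases at the joints. A beta chain that pairs with the pre-T alpha chain (Ptcra) forms the pre-T cell receptor, whose signal, together with Notch, drives rounds of division known as beta selection. RAG2 protein is degraded as cells enter S phase. In what follows, members are set against resting DN-like cells (Mki67 at 0, Il2ra at 1 or more, Cd4 and Foxp3 at 0) and against cycling Cd4-bearing cells (Mki67 at 5 or more, Cd4 at 1 or more) of the same libraries. Since the rule used Mki67 and Cd4, those comparisons are descriptions. The name DN-like rests on transcripts alone, and no CD4 protein reading per cell was used. It stands against a gate that asked for CD4-positive cells. DN-like barcodes of any Mki67 were 6090 of 8215 kept in the WT CD25+ library and 8384 of 10110 in the knockout-labelled one. Why a CD4-positive gate held so many was not tested.

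The CD25+ libraries held 8215 kept barcodes in the WT library and 10110 in the knockout-labelled library. Members summed to 7702397 UMIs in WT and 14477604 UMIs in the knockout-labelled library, with medians of 19587 and 16776 UMIs per cell. Resting DN-like cells were shallower, at medians of 5968 and 5772 UMIs. Scrublet, a doublet caller, placed 9 WT members (2.34%) and 85 knockout-labelled members (10.0%) among the barcodes most like doublets, and they were kept. The 2 CD25+ libraries shared 118 kept barcodes, and no barcode was a member in both. Xist was at 1487 and 1489 CPM in members, and Ddx3y, Kdm5d and Uty of the Y chromosome were at 0 in both.

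Members made up 384 of 8215 kept barcodes in the WT CD25+ library, a share of 4.67% (4.23% to 5.15%, Clopper-Pearson). They made up 847 of 10110 in the knockout-labelled CD25+ library, a share of 8.38% (7.84% to 8.93%). The knockout-labelled share was higher by 3.70 percentage points (Newcombe interval 2.99 to 4.41). Of all DN-like barcodes, whatever their Mki67, members were 6.31% of 6090 in WT and 10.1% of 8384 in the knockout-labelled library, 3.80 points apart (2.90 to 4.68). The CD25- libraries held 0 members of 3118 kept barcodes in WT, which allows a share of up to 0.0962%, and 1 of 1767 in the knockout-labelled library. The rule asks for an Il2ra UMI, so their near absence from the CD25- gate is largely set by the rule, and DN-like barcodes of any Mki67 numbered 5 and 3 there.

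Many cells lay near the Mki67 threshold. DN-like barcodes with 1 to 4 UMIs of Mki67 numbered 275 (WT) and 778 (knockout-labelled), and they were neither members nor resting cells. Among members, 123 WT cells (32.0%) and 328 knockout-labelled cells (38.7%) held 5 to 9 UMIs of Mki67. With every other condition met, 35 WT and 98 knockout-labelled cells held 4 UMIs of Mki67 and lay just outside, and 23 and 79 held 5 and lay just inside. Those outside had Dntt at 1177 and 963 CPM and those inside at 1089 and 1061 CPM. A further 13 WT and 22 knockout-labelled cells failed on Il2ra alone, with Dntt at 491 and 389 CPM. Cd4 at a single UMI kept out 1 WT and 20 knockout-labelled cells. Those 20 had Ptcra at 354 CPM and Dntt at 634 CPM, and they are among the 77 cycling Cd4-bearing cells of that library. Among members the median was 14 UMIs of Mki67 in the WT library and 12 in the knockout-labelled library, and 15 and 14 of Il2ra.

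Of the markers given for the cells, Aurkb and Dntt were not used by the rule. Aurkb, a mitotic kinase, was at 152 CPM in WT members and 182 CPM in knockout-labelled members, against 1.16 and 1.87 CPM in resting DN-like cells. Dntt was at 1246 and 980 CPM, against 159 and 425 CPM in cycling Cd4-bearing cells. Ptcra was at 199 CPM (189 to 209) in WT members and 295 CPM in knockout-labelled members, against 35.8 and 170 CPM in the cycling Cd4-bearing cells. Both markers and Ptcra thus stood on the side the name implies in each library. The alpha chain constant gene Trac, which is transcribed after the DN stages, was at 1.17 and 2.62 CPM in members and at 181 and 83.7 CPM in cycling Cd4-bearing cells. Cd8a was at 0 UMIs in WT members and 0.414 CPM in knockout-labelled members, and Cd8b1 at 2.86 and 2.49 CPM.

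**Figure D1:**
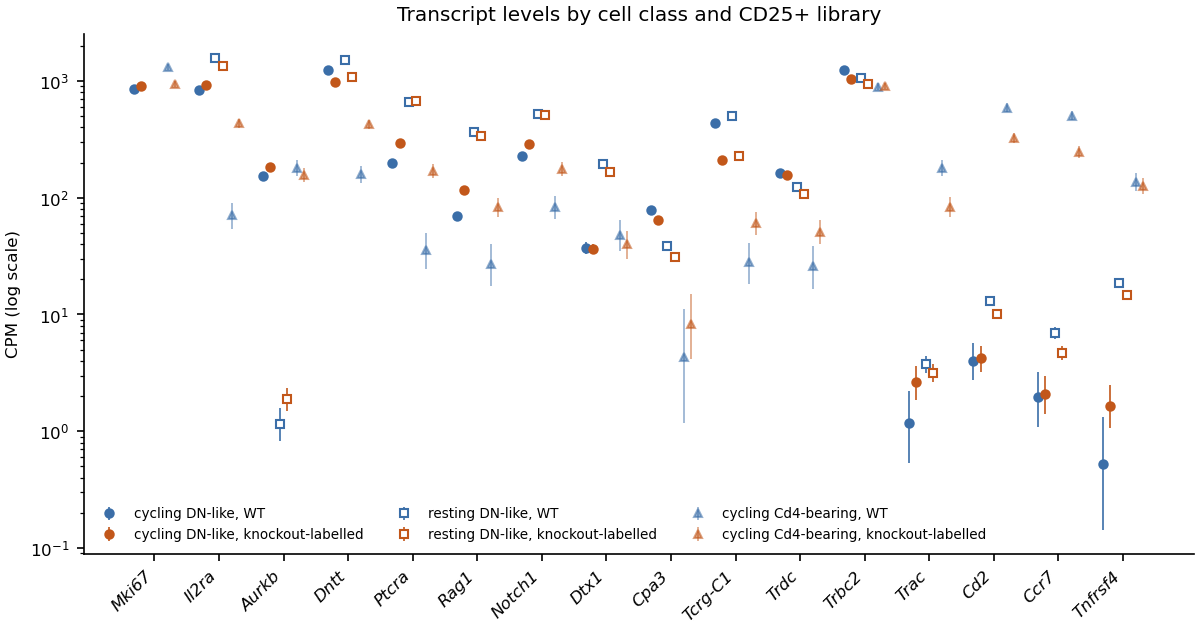
Levels of 16 transcripts in CPM on a log axis, for cycling DN-like cells (filled circles), resting DN-like cells (open squares) and cycling Cd4-bearing cells (triangles) of the WT (blue) and knockout-labelled (orange) CD25+ libraries, with exact Poisson intervals. Mki67 is 0 by rule in resting cells and is not drawn there. Aurkb separates both cycling classes from resting cells, whereas Ptcra, Rag1 and Tcrg-C1 are higher, and Trac, Cd2, Ccr7 and Tnfrsf4 lower, in cycling DN-like cells than in cycling Cd4-bearing cells.

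Against resting DN-like cells, members carried more of most division transcripts and less of many recombination, Notch and T cell receptor transcripts. A gene was compared at 20 CPM or more in either class and called where it differed by at least 1.5-fold in the same direction in both libraries. Of 7106 genes compared, 1981 were called (27.9%), of which 752 were higher in members (10.6%) and 1229 lower (17.3%). The median gene was below 0 on the log2 scale (-0.17 in the WT library and -0.16 in the knockout-labelled library), and after centring on it 1029 were higher and 761 lower. All 26 genes of the G2 and mitosis list were called higher, with a median log2 ratio of 5.25 in the WT library and 5.23 in the knockout-labelled library. Top2a, the topoisomerase that untangles chromosomes, stood at 825 CPM in WT members and 42.5 CPM in WT resting cells. Its levels in the knockout-labelled library were 968 and 57.9 CPM. Ccnb1, the mitotic cyclin, was at 79.3 and 114 CPM in members and at 1.90 and 2.80 CPM in resting cells.

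Of the 10 highest ratios by the rule for named genes, 3 were of the G2 and mitosis list, Hmmr, Birc5 and Ube2c. Hmmr, a spindle-binding protein, was at 106 and 128 CPM in members against 0.368 and 0.647 CPM in resting cells, a ratio of 289-fold in WT and 197-fold in the knockout-labelled library. Pimreg was 267-fold and 229-fold higher, Birc5, the survivin subunit of the chromosomal passenger complex, 242-fold and 160-fold, and Ube2c, which passes ubiquitin to the substrates of the anaphase-promoting complex, 170-fold and 137-fold. Kif2c, Iqgap3, Depdc1b, Kif18b, Espl1 and the histone gene Hist1h2af completed the 10. Each of the 10 was over 100-fold higher in both libraries. All 10 were under 20 CPM in resting cells and were compared only through members, so that they had to differ.

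Many mitotic genes are bound through a pair of short promoter motifs, the cell cycle homology region (CHR) and the CCAAT box, the first being a known site of the DREAM and MuvB complexes. The 300-base promoters of 4 list members are shown because the G2 and mitosis list separated members from resting cells most widely. Sequences are from RefSeq (GRCm38.p6), from 250 bases before to 50 bases after the annotated start, 5′ to 3′ on the gene's strand. Capitals mark CHR matches (TTTGAA or its reverse complement TTCAAA) and CCAAT matches (CCAAT or its reverse complement ATTGG), and a run of CCAATTGG holds both orientations of the CCAAT box overlapping.
Hmmr, chr11:40733388-40733687, minus strand: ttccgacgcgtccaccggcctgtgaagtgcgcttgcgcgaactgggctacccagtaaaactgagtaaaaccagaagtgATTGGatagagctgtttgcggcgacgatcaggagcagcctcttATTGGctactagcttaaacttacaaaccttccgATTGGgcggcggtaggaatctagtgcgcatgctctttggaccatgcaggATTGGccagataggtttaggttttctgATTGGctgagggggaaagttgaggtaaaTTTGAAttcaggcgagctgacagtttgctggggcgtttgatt
Ube2c, chr2:164769679-164769978, plus strand: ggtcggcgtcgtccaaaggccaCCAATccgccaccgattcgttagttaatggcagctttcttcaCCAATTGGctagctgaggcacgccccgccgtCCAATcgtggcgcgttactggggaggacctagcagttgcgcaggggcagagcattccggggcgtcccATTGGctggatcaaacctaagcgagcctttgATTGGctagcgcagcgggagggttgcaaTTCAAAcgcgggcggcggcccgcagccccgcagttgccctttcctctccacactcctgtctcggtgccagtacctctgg
Plk1, chr7:122159185-122159484, plus strand: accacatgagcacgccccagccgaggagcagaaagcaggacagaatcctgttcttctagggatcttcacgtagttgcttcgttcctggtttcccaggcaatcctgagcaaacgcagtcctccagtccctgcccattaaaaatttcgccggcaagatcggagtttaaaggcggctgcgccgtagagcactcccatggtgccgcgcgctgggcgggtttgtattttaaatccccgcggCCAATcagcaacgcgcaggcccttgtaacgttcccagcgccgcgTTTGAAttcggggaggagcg
Ccnb2, chr9:70421505-70421804, minus strand: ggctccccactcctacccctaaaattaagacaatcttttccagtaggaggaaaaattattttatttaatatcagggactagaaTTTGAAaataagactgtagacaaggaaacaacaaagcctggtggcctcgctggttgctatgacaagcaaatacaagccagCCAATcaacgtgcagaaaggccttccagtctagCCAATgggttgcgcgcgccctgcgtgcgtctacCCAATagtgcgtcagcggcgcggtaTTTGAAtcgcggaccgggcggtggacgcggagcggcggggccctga
Of the 26 list genes, 22 had a promoter entry. A CHR match was present in 17 of the 22 (77.3%), against 20.2% of 27025 genes with an entry. A CCAAT match was present in 19 (86.4%, against 41.1%), and both in 16 (72.7%, against 7.97%). Birc5, Bub1, Ccnb1, Cenpe and Nusap1 had no CHR match in this window. The G1/S and DNA replication list, by comparison, had a CHR match in 3 of 21 genes and the pre-T cell receptor and V(D)J recombination list in 1 of 10. These matches describe letters in a fixed window and not bound sites.

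Genes of DNA replication were also higher in members, by smaller ratios. Of 26 genes on the G1/S and DNA replication list 23 were called higher, with medians of 1.99 and 1.51. Rrm2, the regulated subunit of ribonucleotide reductase, was at 422 and 386 CPM in members and at 15.1 and 20.3 CPM in resting cells. Uhrf1, which maintains DNA methylation at forks, was at 387 and 388 CPM in members and at 367 and 400 CPM in resting cells, and was not called. All 18 replication-dependent histone genes were called higher, with medians of 2.63 and 3.45. Hist1h1b, a linker histone, was at 1378 and 1856 CPM against 77.5 and 51.4 CPM. Histone genes share near-identical sequence, so counts of single members are uncertain.

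Regulators of the G1 phase were mixed. Of 15 compared genes on the list of CDKs, D cyclins and CDK inhibitors, 7 were called higher and 3 lower. Ccnd3, the D cyclin needed for division after beta selection, was at 332 and 268 CPM in members and at 192 and 184 CPM in resting cells. Ccnd2 was at 115 and 140 CPM in members, against 299 and 295 CPM. The CDK inhibitor Cdkn1a was at 72.8 and 68.8 CPM, against 186 and 113 CPM. E2f8, a repressor made late in S phase, was at 80.4 and 89.9 CPM, against 0.792 and 1.22 CPM. Ccnd2 was called lower, whereas Ccnd3 was under 1.5-fold in the knockout-labelled library and was not called.

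Lists of growth and energy genes had medians above 0, and outside glycolysis most of their genes were not called. Of 15 compared genes of Myc targets and ribosome biogenesis 2 were called higher, near the 10.6% of all genes, and the medians were 0.72 and 0.45. Npm1, nucleophosmin, was at 2512 and 2210 CPM in members against 1379 and 1570 CPM. Myc itself was at 214 and 216 CPM in members, below the 313 and 303 CPM of resting cells. Of 13 compared glycolysis genes 6 were called higher and 1 lower. Ldha, lactate dehydrogenase, was at 792 and 648 CPM against 354 CPM in resting cells of either library. Of 16 oxidative phosphorylation genes 3 were called higher, with medians of 0.52 and 0.40.

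Genes of the pre-T cell receptor and of recombination were lower in members than in resting DN-like cells. Of 10 compared genes 6 were called lower and none higher, and the medians were -1.14 in the WT library and -0.75 in the knockout-labelled library. Ptcra (chr17:46755663-46763712) was at 199 and 295 CPM in members, against 665 and 668 CPM. Rag1 (chr2:101638282-101649501) was at 69.8 and 117 CPM, against 364 and 335 CPM. Rag2, its neighbour on chromosome 2, was at 49.9 and 61.7 CPM, against 133 and 101 CPM. Dntt differed less, at 1246 and 980 CPM against 1504 and 1074 CPM. The recombinase transcripts were therefore lower in members but not absent, and terminal transferase was within 1.5-fold of the resting level.

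Notch receptors and targets followed the same direction, with 4 of 6 compared genes called lower and none higher. Dtx1, a Notch-induced ubiquitin ligase, was at 37.1 and 36.7 CPM in members, against 193 and 165 CPM in resting cells. Notch3 was at 41.0 and 65.2 CPM against 209 and 194 CPM, and Notch1 at 227 and 289 CPM against 523 and 508 CPM. Among T cell receptor and CD3 genes 7 of 11 were called lower. Cd3d was at 652 and 856 CPM, against 1855 and 1638 CPM. Trbc2, the beta chain constant gene, was the other way and not called, at 1233 and 1043 CPM against 1065 and 935 CPM. Of 13 T lineage transcription factors 5 were called lower and none higher.

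The 10 lowest ratios by the named-gene rule were Tcp11l2, Scn4b, Atoh8, Spo11, Kcnh3, Chrna9, Slc5a9, Traf1, Bmf and Ccr9. All but Slc5a9 were under 20 CPM in members and were compared only through resting cells, so that they had to be lower. Bmf, a pro-apoptotic BH3-only gene, was at 1.43 and 3.73 CPM in members and 15.6-fold and 5.61-fold higher in resting cells. Ccr9, a thymic homing receptor, was at 11.8 and 8.36 CPM, against 110 and 46.4 CPM. Scn4b and Atoh8 come from a list that separated clusters of Cd4-low cells in these same data, and their side is no independent observation. Malat1 and Gm42418, which overlaps ribosomal RNA sequence, were also lower in members. Malat1 was at 2924 and 3296 CPM against 7743 and 6834 CPM, and Gm42418 at 4211 and 4953 CPM against 8214 and 8184 CPM. The part of these abundant transcripts, and of the greater depth of members, in the counts of lower genes was not tested.

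**Figure D2:**
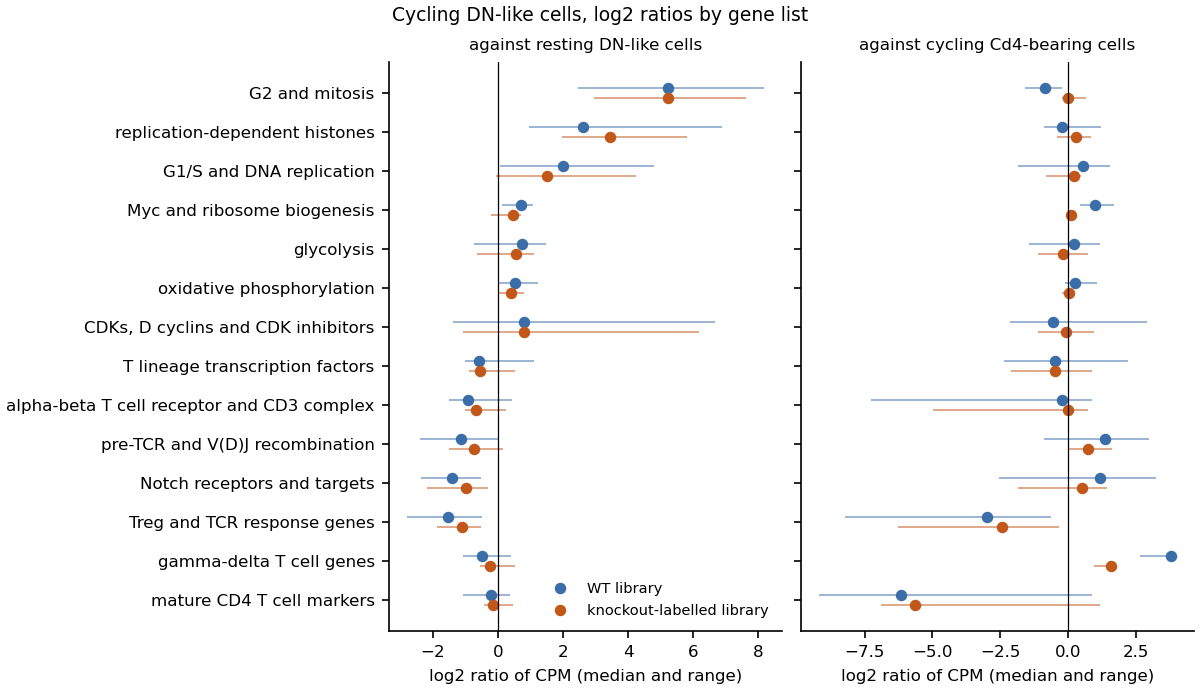
Median (point) and range (line) of log2 ratios over the compared genes of 14 lists, for cycling DN-like cells against resting DN-like cells (left) and against cycling Cd4-bearing cells (right), in the WT (blue) and knockout-labelled (orange) CD25+ libraries. The 3 division lists at the top stand far right of 0 against resting cells. Against the other cycling class the G2 and mitosis median is at -0.86 (WT) and -0.01 (knockout-labelled), and gamma-delta and pre-TCR medians are to the right and Treg response and mature CD4 genes to the left.

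Against cycling Cd4-bearing cells, which number 66 in the WT library and 77 in the knockout-labelled library, members differed most in lineage genes. Of 6689 genes compared, 931 were called (13.9%), of which 333 were higher in members (4.98%) and 598 lower (8.94%). The G2 and mitosis list differed between the libraries. In WT all 26 genes were below 0 (median log2 ratio -0.86), whereas in the knockout-labelled library 14 were below and 12 above (median -0.01), and none was called, since a call needs both libraries. The G1/S and replication medians were 0.54 and 0.23, with 1 gene called lower. Of the cycling Cd4-bearing cells, 6 WT cells (9.09%) and 22 knockout-labelled cells (28.6%) were among the barcodes most like doublets, and the part of this in the values was not tested.

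Recombination and gamma-delta genes were on the side of the members. Of 9 compared pre-T cell receptor and recombination genes 7 were called higher, and all 4 compared gamma-delta genes were. Tcrg-C1, a gamma chain constant gene, was at 440 and 209 CPM in members, against 28.2 and 60.4 CPM. Trdc, the delta constant gene, was at 164 and 157 CPM against 26 and 51.3 CPM. Cpa3, a protease gene of mast cells that is also transcribed in early thymic progenitors, ranked first among the named genes on this side, at 78.0 and 64.2 CPM against 4.34 and 8.30 CPM. Kit, the stem cell factor receptor, was 3.17-fold and 4.97-fold higher. Of the 3 early thymic progenitor genes compared, these 2 were called higher and Cd44, an adhesion receptor, was called lower, at 5.19 and 4.63 CPM in members against 33.6 and 27.9 CPM. All 3 reached 20 CPM in 1 class only and so had to differ. In the Cd4-bearing cells Cpa3 rested on 4 and 11 UMIs, and Kit on 8 UMIs in either library. The fatty acid desaturase Fads2 was 11.5-fold and 3.73-fold higher.

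Genes of mature and selected T cells were on the side of the Cd4-bearing cells. Of 9 compared mature CD4 T cell markers 8 were called lower and 1 higher in members, with medians of -6.16 and -5.66. Of the 8, 6 were under 20 CPM in members and were compared only through the Cd4-bearing cells, so that they had to differ, and the same holds for part of both lists that follow. Ccr7, which guides mature thymocytes to the medulla, was at 1.95 and 2.07 CPM in members, against 505 and 247 CPM. Klf2, a factor of thymic exit, was at 7.66 and 4.14 CPM against 547 and 217 CPM, and Cd2 at 4.02 and 4.21 CPM against 590 and 327 CPM. Of 11 compared regulatory T cell and receptor response genes 8 were called lower. Tnfrsf4, the OX40 receptor, was at 0.519 and 1.66 CPM against 138 and 127 CPM. Of 13 compared interferon-induced genes 11 were called lower and none higher. Ifi27l2a was at 10.0 and 48.1 CPM in members, against 1734 and 1026 CPM.

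Members were not uniform along the cell cycle. They were ordered by the log2 ratio of their G2 and mitosis UMIs to their G1/S and replication UMIs and divided into 3 ranges of nearly equal size over both libraries, called the replication, middle and mitosis ranges, with cut points at -1.10 and 0.20. The ratio is continuous, and 315 of 1231 members lay within 0.25 of a cut point. Ccnb1 was at 24.4, 56.6 and 217 CPM across the ranges in WT and at 25.5, 55.5 and 252 CPM in the knockout-labelled library. Ccnb1 and Mcm5 belong to the lists that set the ranges, so their order is fixed by construction. Hist1h1b, which does not, was highest in the middle range of both libraries, at 1878 and 2471 CPM, and lower in the replication range (983 and 1219 CPM) and the mitosis range (1354 and 1847 CPM).

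WT and knockout-labelled members were spread differently over these ranges. In WT, 158 members (41.1%) were in the replication range and 94 (24.5%) in the mitosis range. In the knockout-labelled library, 252 (29.8%) were in the replication range and 317 (37.4%) in the mitosis range. The knockout-labelled share was lower by 11.4 points (interval 5.64 to 17.2 lower) in the replication range and higher by 12.9 points (7.40 to 18.2) in the mitosis range. Without the barcodes most like doublets the mitosis range differed by 13.5 points, and after thinning every cell to 4000 UMIs by 13.2 points. The thinned cells were members chosen at full depth. Mki67, which the rule used, was at 515 CPM (WT) and 498 CPM (knockout-labelled) in the replication range. In the mitosis range Mki67 was at 1341 and 1280 CPM. The part of cells left out by the Mki67 threshold in these shares was not tested. Median depth in the mitosis range was 18191 UMIs in WT and 15565 UMIs in the knockout-labelled library.

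Recombination genes differed along the same axis. Rag1 was at 46.6, 61.5 and 126 CPM from the replication to the mitosis range in WT, and at 74.9, 103 and 171 CPM in the knockout-labelled library. Rag2 was at 30.8, 37.1 and 105 CPM in WT, and at 33.9, 53.1 and 95.9 CPM in the knockout-labelled library. Ptcra was at 164, 182 and 289 CPM in WT, and at 220, 297 and 365 CPM in the knockout-labelled library. All 3 genes were therefore highest in the mitosis range of each library, and there Rag1 was still below the 364 and 335 CPM of resting cells. Dntt showed no such order, at 1277, 1164 and 1310 CPM in WT and at 1004, 973 and 963 CPM in the knockout-labelled library.

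Other genes ran the opposite way. Ccnd3 was at 389, 322 and 240 CPM in WT and at 367, 266 and 179 CPM in the knockout-labelled library. Npm1 was at 3057, 2371 and 1708 CPM in WT and at 2773, 2219 and 1679 CPM in the knockout-labelled library. Kit was at 39.6, 21.4 and 14.3 CPM in WT and at 41.2, 26.9 and 22.5 CPM in the knockout-labelled library. Each of these 3 was highest in the replication range in both libraries. Cdkn1b, the CDK inhibitor p27, had the order of Rag1, at 49.1, 62.6 and 103 CPM in WT and at 51.4, 66.8 and 93.3 CPM in the knockout-labelled library.

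**Figure D3:**
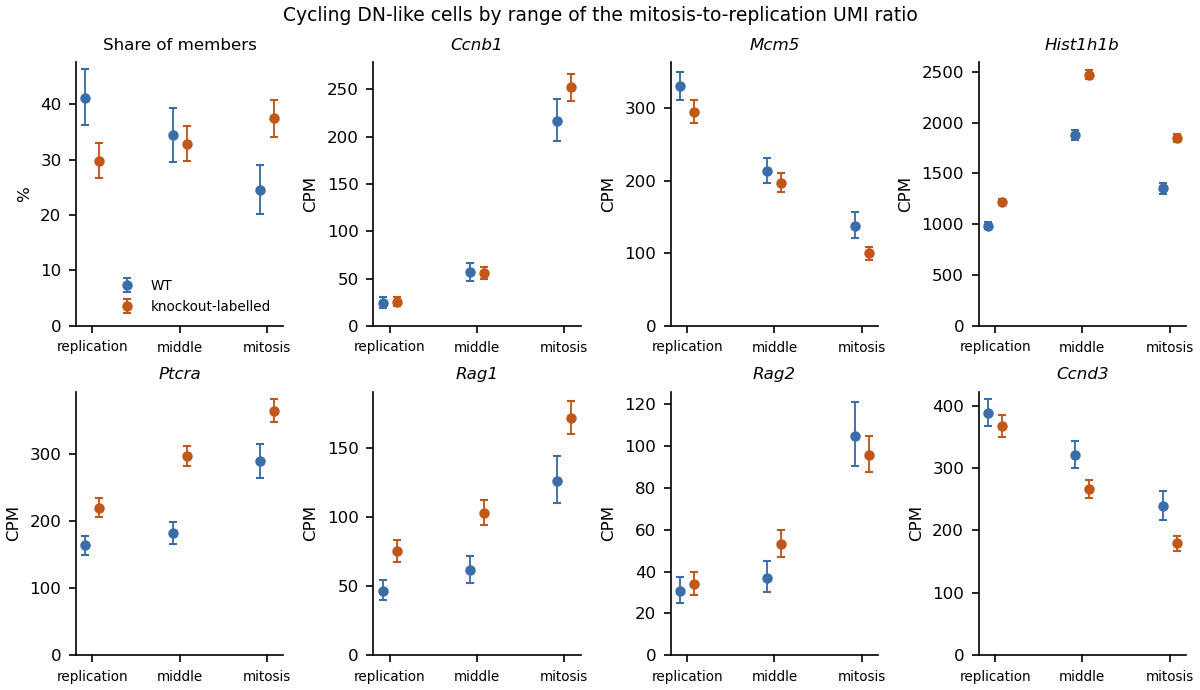
Share of members (percent, Clopper-Pearson intervals) and levels of 7 genes (CPM, Poisson intervals) in the replication, middle and mitosis ranges of WT (blue) and knockout-labelled (orange) cycling DN-like cells. Ccnb1 and Mcm5 helped to set the ranges. Rag1, Rag2 and Ptcra are highest and Ccnd3 lowest in the mitosis range of both libraries, and the mitosis range holds 24.5% of WT and 37.4% of knockout-labelled members.

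Members also differed by whether they carried recombinase or early progenitor transcripts. After thinning to 4000 UMIs, which left out 1 WT and 5 knockout-labelled members, a Rag1 UMI was found in 91 of 383 WT members (23.8%, 19.6% to 28.3%) and 260 of 842 knockout-labelled members (30.9%, 27.8% to 34.1%). A Cpa3 UMI was found in 62 WT members (16.2%, 12.6% to 20.3%) and 95 knockout-labelled members (11.3%, 9.22% to 13.6%). Rag1 was found in 12.9% of WT members with a Cpa3 UMI and 25.9% of those without, and in 13.7% and 33.1% of knockout-labelled members. Ptcra was found in 21.0% and 51.1% of WT members with and without a Cpa3 UMI, and in 22.1% and 57.8% of knockout-labelled members. The Rag1 share without a Cpa3 UMI was higher by 13 points in WT (Newcombe interval 1.49 to 21.0) and by 19.4 points in the knockout-labelled library (10.4 to 25.9). The Ptcra share was higher by 30.1 points (17.2 to 40.0) and 35.7 points (25.7 to 43.7).

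Ptcra and Rag2 were higher in members with a Rag1 UMI. Of 6475 genes compared, 151 (2.33%) were called higher and 50 (0.772%) lower in both libraries. Ptcra was at 412 CPM with and 172 CPM without a Rag1 UMI in WT, and at 495 and 251 CPM in the knockout-labelled library. Rag2 was at 79.7 and 37.7 CPM in WT and at 100 and 49.4 CPM in the knockout-labelled library. Cpa3, the inhibitor of E proteins Id3, and Ccnd3 were called lower, with Ccnd3 at 223 and 341 CPM in WT and at 157 and 308 CPM in the knockout-labelled library. The mitosis range held 38.5% of WT members with a Rag1 UMI and 20.2% of those without, and 50% and 31.8% in the knockout-labelled library. The part of the cell cycle range in these differences was not tested.

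Tcrg-C1 and Trdc were higher in members with a Cpa3 UMI. Of 6556 genes compared, 203 (3.1%) were called higher and 151 (2.3%) lower in both libraries. Tcrg-C1 was at 819 CPM with and 361 CPM without a Cpa3 UMI in WT, and at 568 and 147 CPM in the knockout-labelled library. Trdc was at 250 and 166 CPM in WT and at 237 and 152 CPM in the knockout-labelled library. Hhex, a progenitor homeobox factor, was at 36.3 and 1.56 CPM in WT and at 15.8 and 0.669 CPM in the knockout-labelled library. The named genes highest with Cpa3 were Ctla2a, Plac8, Vim, Nkg7, Atp8b4, S100a10, Acadl, Tmsb10, Gpx1 and Tspan2.

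Lef1, Ptcra and Cd3d were on the other side of that split. Lef1, a factor that acts with Tcf7, was at 44.4 CPM with and 192 CPM without a Cpa3 UMI in WT, and at 63.2 and 248 CPM in the knockout-labelled library. Ptcra was at 72.6 and 259 CPM in WT and at 81.6 and 357 CPM in the knockout-labelled library. Cd3d was at 323 and 729 CPM in WT and at 534 and 944 CPM in the knockout-labelled library. Il2ra differed little, at 871 and 848 CPM in WT and at 1032 and 929 CPM in the knockout-labelled library. The mitosis range held 17.7% of WT members with a Cpa3 UMI and 25.9% of those without. In the knockout-labelled library it held 20% and 39.6%. The part of the cell cycle range in the differences between members with and without a Cpa3 UMI was not tested. Of 15 early thymic progenitor genes, Flt3, Gata2 and Tal1 were under 0.4 CPM in members of both libraries, and Kit was at 27.5 and 30 CPM.

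**Figure D4:**
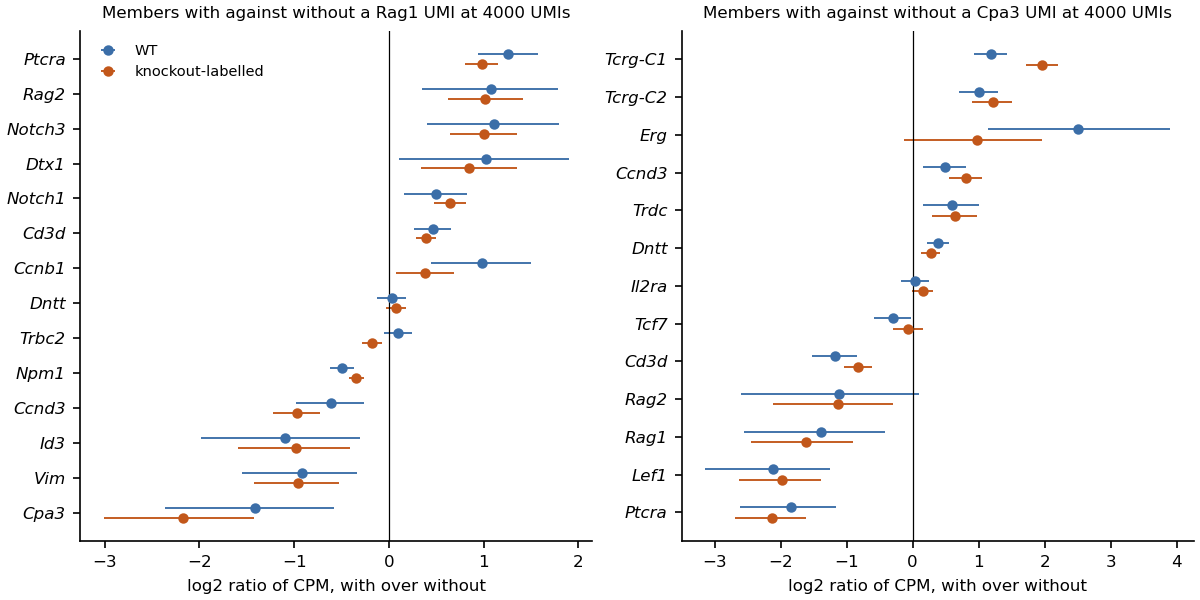
Log2 ratios of CPM, with exact intervals, between members with and without a Rag1 UMI (left) and with and without a Cpa3 UMI (right) after thinning to 4000 UMIs, in the WT (blue) and knockout-labelled (orange) CD25+ libraries. Ptcra is to the right of 0 in the Rag1 split and to the left in the Cpa3 split, where Tcrg-C1 and Tcrg-C2 are to the right in both libraries.

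Between the libraries, knockout-labelled members had higher interferon-induced and histone transcripts and lower heat shock transcripts than WT members, within a background of few called genes. Of 6608 genes compared, 268 (4.06%) differed by 1.5-fold or more, 162 of them upward (2.45%) and 106 downward (1.6%). When the CPM total left out mitochondrial genes, receptor segments and ribosomal proteins, 247 were higher and 96 lower. Within the replication range defined above the split was 153 higher and 163 lower.

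Of 10 compared interferon-induced genes 6 were called higher and none lower, with a median log2 ratio of 1.20, beside -0.04 over all genes. Genes such as Usp18, Irf7 and Ifi27l2a (10.0 CPM in WT and 48.1 CPM in knockout-labelled members) reached 20 CPM only in the knockout-labelled library. They therefore had to differ. With a minimum of 50 CPM, 6 genes were left with a median of 0.42 and 4 above 0. Usp18, which limits interferon signalling, was at 4.15 CPM in WT and 22.9 CPM in knockout-labelled members, a 5.52-fold difference (3.83 to 8.20). Irf7, a transcription factor of the response, was at 4.67 and 21.6 CPM. Isg15, a ubiquitin-like modifier, was at 34.7 and 105 CPM, a 3.02-fold difference (2.65 to 3.45). The same list had a median of 0.87 in resting DN-like cells, where Isg15 was at 81.0 and 161 CPM. The interferon difference was thus not limited to dividing cells.

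H2-Q7, which is not on that list, was at 25.1 CPM in WT and 152 CPM in knockout-labelled members. This was the highest ratio among the named genes at 6.05-fold (5.22 to 7.04), and H2-Q7 was 6.48-fold higher in resting cells too. H2-Q7 is an MHC class Ib gene with near-identical neighbours, so its count is uncertain. Mid1, an X-linked ubiquitin ligase, was at 7.27 and 38.5 CPM. Bst1, an ADP-ribosyl cyclase, was at 31.7 and 90.9 CPM in members, a 2.87-fold difference against 1.46-fold in resting cells. Ifi27l2a, Rtp4, Slfn8 and Ifitm3 completed the 10 highest, between 2.81-fold and 4.81-fold. Mid1, Ifi27l2a, Slfn8 and Ifitm3 reached 20 CPM only in the knockout-labelled library and so had to differ.

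Heat shock transcripts were lower in the knockout-labelled library. Of 13 compared heat shock and dissociation genes 7 were called lower and none higher, with a median of -0.59. Hspa8 (chr9:40800984-40810087), the constitutive HSP70, was at 4214 CPM in WT and 568 CPM in knockout-labelled members, 7.42-fold lower (7.24 to 7.60). Hsph1 was at 182 and 45.7 CPM, and Hsp90aa1 at 2198 and 1182 CPM. The stress genes Fos and Junb of the same list were not called, at 43.2 and 44.2 CPM and at 71.8 and 87.2 CPM. Resting DN-like cells had the same direction, with Hspa8 at 2445 and 487 CPM and a list median of -0.52. Genotype label and library cannot be told apart here.

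Other genes at the low end were Nefh, Thy1, Kremen1, Scin, Emid1, Egln1, Ppic and Nfix. Emid1, like Scn4b and Atoh8, comes from the list that separated clusters of Cd4-low cells in these same data. Its place here is therefore no independent observation. Nefh, Kremen1, Ppic and Nfix reached 20 CPM only in the WT library, so they had to be lower in the knockout-labelled library. Thy1, the surface glycoprotein of thymocytes, was at 791 CPM in WT and 233 CPM in knockout-labelled members, and at 802 and 240 CPM in resting cells. The gamma chain genes Tcrg-C1 and Tcrg-C2, which are close copies, were called lower, at 440 and 209 CPM and at 319 and 147 CPM. In resting cells Tcrg-C1 was at 499 and 229 CPM. The other members of the gamma-delta list that were compared, Trdc and Tcrg-C4, were not called, at 164 and 157 CPM and at 112 and 107 CPM.

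Most genes of the pre-T cell receptor and recombination list were higher in knockout-labelled members, and most of them by less than the threshold. Rag1 was 1.68-fold higher (1.53 to 1.86) in members and 0.920-fold in resting cells. Ptcra was 1.49-fold higher (1.40 to 1.58), just under the threshold, and 1.00-fold in resting cells. Dclre1c, the Artemis nuclease, was 1.57-fold higher (1.25 to 1.99) in members. It reached 20 CPM only in the knockout-labelled library and so had to be higher there. Dntt was on the other side and not called, at 1246 and 980 CPM in members and 1504 and 1074 CPM in resting cells. Of 9 compared genes 8 were above 0 and 2 were called, with a median of 0.25 in members. In resting cells 5 were above 0 and 4 below, with a median of 0.00. Within the replication range the list median was 0.09, with 5 of 8 genes above 0, and within the mitosis range 0.06, with 6 of 9. Rag1 and Ptcra themselves stayed higher in the knockout-labelled library in each range. In the replication range Rag1 was at 46.6 CPM in WT and 74.9 CPM in the knockout-labelled library, and Ptcra at 164 and 220 CPM. In the mitosis range Rag1 was at 126 and 171 CPM, and Ptcra at 289 and 365 CPM. The difference between members and resting cells was not tested, since it rests on 1 library a group.

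Cell cycle lists differed by less than the threshold. G2 and mitosis genes had a median of 0.29 with 25 of 26 above 0, and none called. G1/S and replication genes had a median of -0.16 in members with 23 of 26 below 0, and none called. In resting cells their median was 0.36, with 26 of 26 above 0. Replication-dependent histones had a median of 0.52 in members with 17 of 18 above 0, and 5 called higher, of which Hist1h1d was at 628 and 963 CPM. The histone list in resting cells had a median of -0.12. Within the replication range the histone median was 0.30 and within the mitosis range 0.56. The ranges were cut on the G2 and mitosis and the G1/S lists themselves, so the medians of those lists are not compared within them.

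Myc targets and ribosome biogenesis genes were lower in knockout-labelled members in 16 of 16 cases, with a median of -0.30 and 1 call, and had a median of 0.03 in resting cells. The call was Srm, spermidine synthase, at 278 and 161 CPM. Of 7 compared regulatory T cell and receptor response genes 3 were called higher, Capg at 15.2 and 31.9 CPM, Ctla4 at 23.6 and 36.4 CPM and Nrp1 at 18.0 and 28.1 CPM. Capg and Nrp1 reached 20 CPM only in the knockout-labelled library, and with a minimum of 50 CPM 1 gene of the list was left, with a log2 ratio of 0.24. Within the mitosis range the median of the Myc list was -0.15 and within the replication range -0.17.

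**Figure D5:**
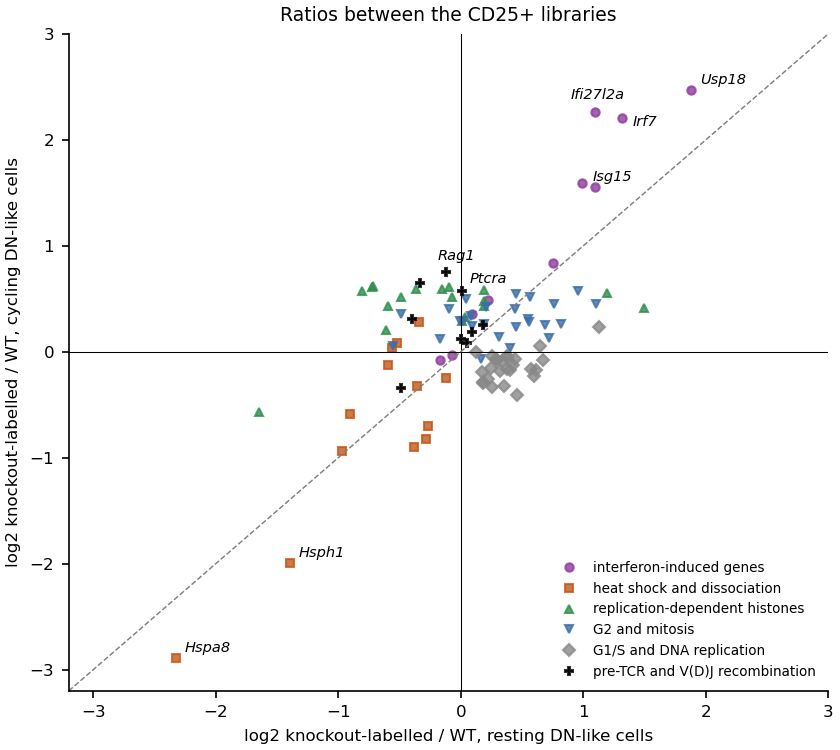
Log2 ratio of knockout-labelled to WT CPM in cycling DN-like cells (vertical) against the same ratio in resting DN-like cells (horizontal), 1 point per gene of 6 lists, with the line of equal ratios dashed. The 4 labelled interferon genes lie at the upper right and Hspa8 and Hsph1 at the lower left in both classes. Rag1 lies above 0 on the vertical and just left of 0 on the horizontal axis, and all G1/S genes lie right of 0 in resting cells, with 23 of 26 below 0 in cycling cells.

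Most defining markers of other cells were at or near 0, with exceptions among natural killer and epithelial markers. Of 10 B cell markers, 6 were at 0 in WT and 7 in knockout-labelled members, among them Ms4a1 and Pax5, and the list summed to 90.9 and 84.1 CPM, carried by Ighm and Cd79b. Of 8 erythroid markers, 5 and 4 were at 0, with sums of 18.0 and 15.7 CPM. Myeloid and dendritic markers summed to 169 and 153 CPM, of which Cst3 gave 128 and 120 CPM, and Csf1r was at 0.519 and 0.276 CPM. Natural killer markers Ncr1 and Klrk1 were at 0 in both, while Gzma was at 203 and 255 CPM and Nkg7 at 175 and 123 CPM, both called higher than in cycling Cd4-bearing cells. Stromal markers Krt5, Foxn1, Col3a1 and Pdgfra were at 0 in both, whereas Epcam was at 50.2 CPM in WT and 116 CPM in knockout-labelled members, and at 202 and 245 CPM in resting DN-like cells. The part of these markers in the results was not tested.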

How the data were processed

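UMI counts per gene and barcode were used as the authors deposited them, as raw whole numbers over 32285 genes for each of 4 libraries (10x Genomics 5′ chemistry). The genome was mm10, and the version of Cell Ranger is 6.2.1 per the submitters' processing notes but 6.1.2 per the file headers. No source used here gives the annotation or how cells were called. The lowest deposited barcode held 500 UMIs. The protocol lists CD74 among the stains and CD73 in the gate, and the gate's CD73 step is uncertain.

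For each library and class of cells, UMIs were added up and scaled to CPM. Levels have exact Poisson intervals, ratios exact conditional binomial intervals, shares Clopper-Pearson intervals and differences of shares Newcombe intervals, all at 95%, and a count of 0 allows 3 counts. All cover counting error only. The ratio script was tested on simulated data. Gene positions are from GENCODE vM21 (GRCm38), which held 32158 of the gene identifiers. Doublets were scored with Scrublet in scanpy 1.11.5, at 0.8% per 1000 barcodes, and kept in all values unless stated. Python 3.11.15, numpy 2.4.6, scipy 1.17.1 and pandas 2.3.3 were used.

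The members and the 28 gene lists were chosen with earlier results of these data known. Named genes were the 10 highest and 10 lowest ratios among genes with at least 100 UMIs with an interval clear of no difference and the same direction under equal weights of cells. Left out were the genes of the membership rule, Pdcd1, receptor segments, Xist and Tsix, genes on the Y chromosome, hemoglobin, mitochondrial and ribosomal protein genes, and unnamed models. All list genes could be named as well. The cell cycle ranges and the splits by Rag1 and Cpa3 were added after seeing the data. Alternatives were a stricter cell filter, leaving out doublets, Mki67 at 10 or more, equal weights of cells, another total, centring on the median gene, thinning to 4000 UMIs, a minimum of 50 CPM, and single cycle ranges.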

Additional observations from a re-analysis of the deposited data

Results flagged for a closer look

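Against cycling Cd4-bearing cells, 3 named genes differed in opposite directions in the 2 CD25+ libraries. Cdc20, an activator of the anaphase-promoting complex, was lower in members in WT (log2 ratio -1.06) and higher in the knockout-labelled library (0.45). The histone gene Hist1h3e had log2 ratios of -0.91 and 0.24 in that order. Ifitm3, an interferon-induced membrane protein, had log2 ratios of -1.63 and 1.20. These differences between libraries were not tested, since each rests on 1 library. The cycling Cd4-bearing cells behind them number 66 and 77, and 28.6% of the latter were among the barcodes most like doublets. The part of this in the values was not tested.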

How the results depend on the processing

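No paired analysis was possible because each group has 1 library. For the same reason no replicate could be left out. The share of members was 5.28% (WT) and 9.46% (knockout-labelled) under the stricter cell filter (at least 1000 genes, under 5% mitochondrial UMIs), 3.18% and 5.13% at Mki67 of 10 or more UMIs, and 4.37% and 9.60% after thinning to 4000 UMIs with Mki67 at 2 or more, so the knockout-labelled share was the higher in each. At Mki67 of 10 or more, the replication range held 29.1% of WT and 16% of knockout-labelled members, and the mitosis range 31.0% and 48.2%. Between the libraries, thinning gave 331 genes higher and 296 lower, the 50 CPM minimum 70 and 57, the replication range alone 153 and 163, the mitosis range alone 260 and 213, and the total without mitochondrial, ribosomal protein and segment genes 247 higher. Against resting cells, centring gave 761 genes lower and the 50 CPM minimum 564. Against cycling Cd4-bearing cells, thinning gave 600 genes higher, and the 50 CPM minimum 169 higher and 310 lower. The single-range settings and the range shares at Mki67 of 10 or more were added after seeing the data. The 50 CPM minimum compares fewer genes (3625 to 3925), and for the other settings the cause was not tested. Of 258 values for 26 named genes under 10 settings, 206 stayed within the counting interval of the value reported and 52 moved. The sign changed for 1 of them, Cpa3, which was not called, from a log2 ratio of -0.28 between the libraries to 0.06 in the replication range alone. With segment genes out, the gamma-delta list had 1 gene compared between the libraries, at 0.21. The 4 genes compared in the main setting are segment genes and were all left out there, so this value does not bear on them. Depth limits genes near the 20 CPM minimum. The cycling Cd4-bearing cells summed to 922029 UMIs in WT and 1325562 UMIs in the knockout-labelled library, so such genes rest on few UMIs there.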
